A study of Homo sapiens with 18 samples.

Results

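Specific and gelatinase granules are the storage organelles that neutrophil precursors fill after the promyelocyte stage. The 10 genes described here encode proteins of these granules: the antimicrobial and binding proteins lactoferrin (LTF), lipocalin 2 (LCN2), cathelicidin (CAMP), CRISP3 and olfactomedin 4 (OLFM4), the matrix metalloproteinases MMP8, MMP9 and MMP25, the surface glycoprotein CEACAM8 and ficolin 1 (FCN1). They were taken from a list of names, each through the probe set annotated to that gene alone. All 10 had exactly 1 such probe set, among 18417 genes that had one and 33297 probe sets in all.

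RNA came from NB4, a human acute promyelocytic leukemia cell line that matures towards neutrophil-like cells under all-trans retinoic acid (ATRA), a ligand of the retinoic acid receptors. The 6 groups, with 3 arrays each, were TG2 knockout cells and wild-type cells, both either untreated or given 1 µM ATRA for 48 or 72 h. TG2, the product of the TGM2 gene, is transglutaminase 2, which links proteins to each other. All 18 arrays were Affymetrix whole-transcript gene arrays, and all cells share the NB4 background. The labels do not say how the knockout line was made or whether it is 1 clone, and some of its sample codes read KD where the titles read knockout. The labels call the replicates biological without saying what separates them, so p-values measure the spread between these arrays.

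Granule proteins are made in waves. Azurophil granule proteins such as myeloperoxidase are made in promyelocytes, specific granule proteins in myelocytes and metamyelocytes, and gelatinase granule proteins later still, and a protein is sorted to the granule that is forming when it is made. Specific granule genes depend on the transcription factor C/EBP epsilon, and people who lack it lack these granules. NB4 cells are known to acquire neutrophil-like shape and surface markers under ATRA while forming few specific granules.

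TGM2 itself had a mean log2 signal of 6.39 ± 0.11 (SD, n = 3) in untreated knockout cells, 10.95 ± 0.37 at 48 h and 11.24 ± 0.37 at 72 h. In wild-type cells it had 6.43 ± 0.17, 12.27 ± 0.18 and 12.37 ± 0.18. It was lower in knockout cells by limma at both times under ATRA, with log2 differences of −1.31 (adjusted p = 0.0345) and −1.13 (adjusted p = 0.0267). TGM2 was called higher under ATRA than untreated in the line labelled knockout too, at both times, and whether TG2 protein was lost is not shown by the array. Of 8 measured promyelocyte and azurophil granule markers, 7 lay above the median probe set in every group, with array means of 8.47 to 9.03 under ATRA and 9.24 to 9.41 in untreated cells. On the first principal component, with 57.1% of the variance, 4 ATRA arrays (knockout 48 h replicates 1 and 3, knockout 72 h replicate 2 and wild-type 48 h replicate 1) lay at 31.2, 31.1, 30.0 and 17.5. The other ATRA arrays lay at 46.3 to 56.6, and the untreated arrays at −89.9 to −84.7. Because these are bulk samples, fewer cells that express a gene and less RNA per cell cannot be told apart.

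The sequence just before the transcription start was in the RefSeq promoter table (GRCh38.p14) for 8 of the 10 genes, with 3 starts for LTF and 1 for each of the others; MMP9 and MMP25 are named only. Each window holds the 250 bases before the start. It was searched on both strands for TTNNGNAA, a C/EBP motif, for AGGTCA, the core half-site of retinoic acid receptors and other nuclear receptors, and for GAGGAA, a PU.1 and Ets motif. A C/EBP match stood in 5 of the 8 genes, against 33.2% of 35116 promoters in the table, a GAGGAA match in 5, against 23.6%, and an AGGTCA match in 1 gene (FCN1), against 12.1%. The counts are of genes, with LTF counted if any of its 3 windows matched, while the percentages are of single windows. The windows of MMP8 and CRISP3, the genes with the largest rises under ATRA among the 10, are shown beside those of OLFM4, which rose less, and LCN2, which passed no test. They lie at chr11:102724955-102725204 on the minus strand (MMP8), chr6:49744389-49744638 on the minus strand (CRISP3), chr13:53028563-53028812 on the plus strand (OLFM4) and chr9:128149203-128149452 on the plus strand (LCN2). Each is written 5′ to 3′ along the gene and ends at the base before the start, and capitals mark matches to any of the 3 motifs.
MMP8: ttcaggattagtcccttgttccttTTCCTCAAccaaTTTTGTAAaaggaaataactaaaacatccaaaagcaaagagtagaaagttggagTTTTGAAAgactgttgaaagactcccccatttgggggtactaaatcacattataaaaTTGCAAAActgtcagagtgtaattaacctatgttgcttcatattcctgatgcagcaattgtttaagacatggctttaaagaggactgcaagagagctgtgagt
CRISP3: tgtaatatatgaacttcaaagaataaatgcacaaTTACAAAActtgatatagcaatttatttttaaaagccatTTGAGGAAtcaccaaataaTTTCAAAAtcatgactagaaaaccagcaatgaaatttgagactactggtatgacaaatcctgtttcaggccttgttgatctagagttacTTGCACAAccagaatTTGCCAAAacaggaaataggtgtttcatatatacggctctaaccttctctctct
OLFM4: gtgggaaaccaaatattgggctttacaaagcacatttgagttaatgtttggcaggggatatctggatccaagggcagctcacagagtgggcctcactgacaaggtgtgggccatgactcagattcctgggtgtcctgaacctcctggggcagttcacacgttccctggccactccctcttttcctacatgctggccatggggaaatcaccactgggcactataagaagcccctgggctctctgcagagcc
LCN2: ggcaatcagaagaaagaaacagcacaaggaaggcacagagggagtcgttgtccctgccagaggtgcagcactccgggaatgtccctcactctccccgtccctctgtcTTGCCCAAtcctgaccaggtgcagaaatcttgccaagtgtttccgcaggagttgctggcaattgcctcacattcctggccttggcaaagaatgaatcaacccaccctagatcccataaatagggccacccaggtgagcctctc
MMP8 holds 4 C/EBP matches, which begin 226, 214, 160 and 103 bases before the start, and the match at 226 overlaps its only GAGGAA match, read on the other strand. CRISP3 holds 5 C/EBP matches, of which the one that begins 177 bases before the start contains a GAGGAA match. LCN2 holds 1 C/EBP match and OLFM4 holds no match to the 3 motifs. The windows of MMP8 and CRISP3 are also rich in A and T, with 63.6% and 67.6%, against 46.0% in OLFM4, 45.2% in LCN2 and a median of 42% over the table. The C/EBP motif is itself mostly A and T, and the matches describe letters only.

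The first question was which of these granule genes changed when NB4 cells matured under ATRA. In knockout cells limma called 2 members higher and 1 lower at 48 h, where 41.4% of all probe sets were called (21.5% higher and 19.9% lower), and again 2 higher and 1 lower at 72 h, where 42% were called (22.8% higher and 19.2% lower). In wild-type cells it called 3 higher and 1 lower at 48 h, where 38.9% of probe sets were called (19.3% higher and 19.6% lower), and 4 higher and 1 lower at 72 h, where 44% were called (23.1% higher and 21% lower). The number of members called was therefore near that of the array as a whole. CRISP3 rose in all 4 comparisons, MMP8 and LTF in 3 each and OLFM4 in 1, while MMP9 fell in all 4. The other 5 members passed the test in none of them. The means over the 18 arrays of the 4 members that rose lay at percentile 43.8 (LTF), 42.8 (CRISP3), 31.2 (OLFM4) and 17.6 (MMP8) of all probe sets. Whether they stood above background was not tested. Both ATRA times share the untreated arrays of their line, so the 48 h and 72 h values of a line are not separate evidence.

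**Figure D1:**
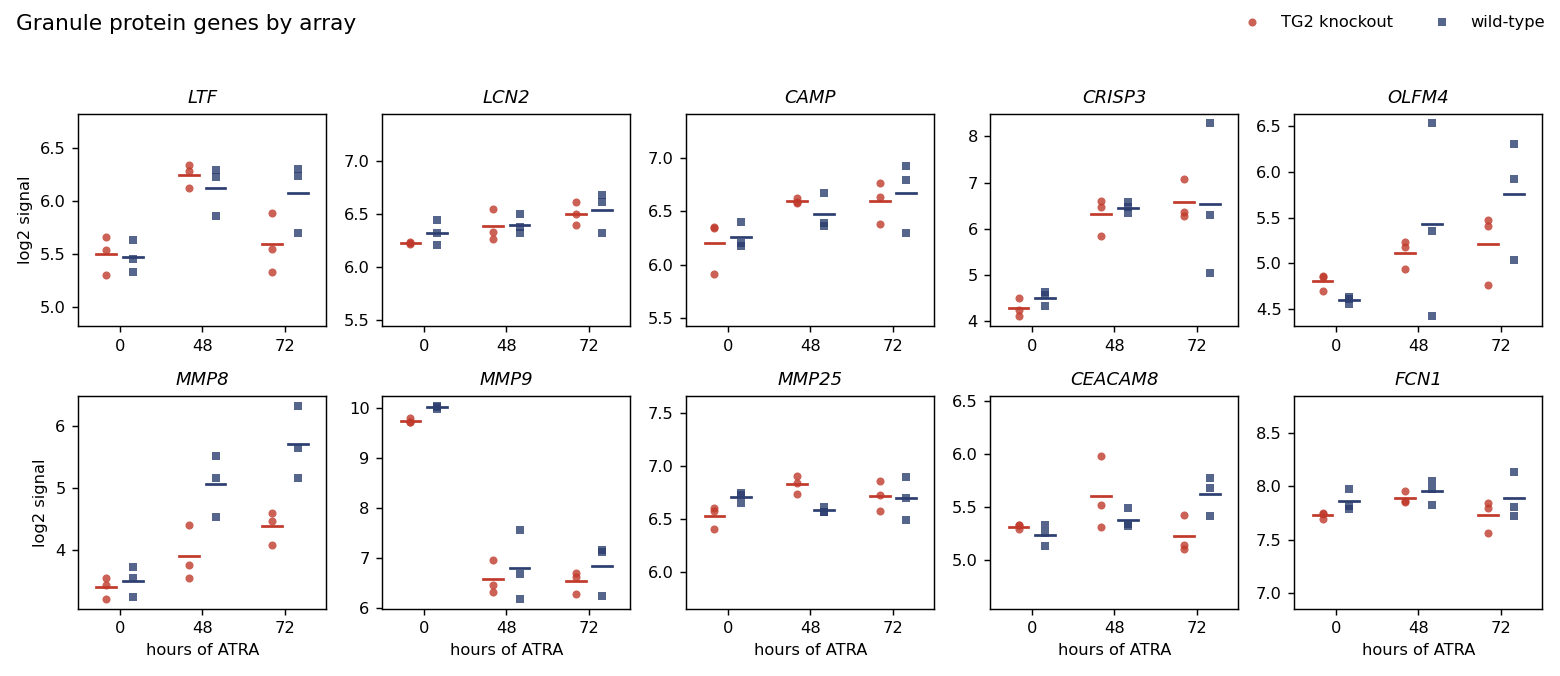
Log2 signal of the 10 granule genes on each array (points) with group means (bars), by hours of ATRA, with TG2 knockout cells left of wild-type cells and 3 arrays per group. MMP9 falls by about the same amount in both lines, CRISP3 rises in both, and MMP8 under ATRA is lower on every knockout array than on every wild-type array of the same time.

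CRISP3, a cysteine-rich secretory protein of specific granules, rose at both times in both lines. Its log2 signals in knockout cells (replicates 1, 2 and 3, in that order here and below) were 4.10, 4.50 and 4.25 untreated, 6.48, 5.85 and 6.60 at 48 h, and 7.08, 6.28 and 6.37 at 72 h. In wild-type cells they were 4.63, 4.56 and 4.33 untreated, 6.57, 6.33 and 6.46 at 48 h, and 8.28, 5.05 and 6.30 at 72 h. Every ATRA array of either line lay above every untreated array, and the widest spread was that of wild-type cells at 72 h. The untreated means lay at percentile 19.1 in knockout cells and 22 in wild-type cells among all probe sets. The folds of CRISP3 are therefore ratios to a signal not shown to be above background. The rise in knockout cells was 4.08-fold at 48 h (log2 difference 2.03 ± 0.51 SE, adjusted p = 0.00513) and 4.90-fold at 72 h (2.29 ± 0.51, adjusted p = 0.00217). In wild-type cells it was 3.86-fold at 48 h (1.95 ± 0.51, adjusted p = 0.00695) and 4.10-fold at 72 h (2.04 ± 0.51, adjusted p = 0.0045). The 72 h value in wild-type cells moved between 1.17 and 2.78 as single arrays were left out, 1.17 without wild-type 72 h replicate 1, and limma called it each time.

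LTF encodes lactoferrin, the iron-binding protein that is a standard marker of specific granules. Knockout cells had log2 signals of 5.66, 5.54 and 5.30 untreated, 6.34, 6.28 and 6.12 at 48 h, and 5.89, 5.33 and 5.55 at 72 h. Wild-type cells had 5.33, 5.45 and 5.63 untreated, 5.86, 6.29 and 6.22 at 48 h, and 5.70, 6.23 and 6.30 at 72 h. At 48 h both lines lay above their untreated arrays without overlap, and at 72 h only the wild-type arrays did. The rise at 48 h was 1.68-fold in knockout cells (log2 difference 0.75 ± 0.18 SE, adjusted p = 0.00414) and 1.57-fold in wild-type cells (0.65 ± 0.18, adjusted p = 0.0101). At 72 h knockout cells differed from untreated by 0.09 ± 0.18 (adjusted p = 0.714) and wild-type cells by 0.61 ± 0.18 (1.52-fold, adjusted p = 0.0138). The wild-type call at 72 h was lost without wild-type untreated replicate 1 (adjusted p = 0.0576), without 72 h replicate 2 (adjusted p = 0.0533) or without 72 h replicate 3 (adjusted p = 0.0641). The knockout arrays at 72 h lay below those at 48 h without overlap, by 0.66 ± 0.18, but limma did not call the difference (adjusted p = 0.381).

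LCN2, the siderophore-binding protein of specific granules, stayed between 6.21 and 6.68 on all 18 arrays. Its largest change was 0.27 ± 0.12 on the log2 scale in knockout cells at 72 h (adjusted p = 0.0823), and in wild-type cells at 72 h it was 0.21 ± 0.12 (adjusted p = 0.167). CAMP, the precursor of the antimicrobial peptide LL-37, lay between 5.91 and 6.93. Its log2 differences were 0.40 ± 0.17 at 48 h and 0.40 ± 0.17 at 72 h in knockout cells (adjusted p = 0.0691 and 0.0704), against 0.22 ± 0.17 and 0.42 ± 0.17 in wild-type cells (adjusted p = 0.329 and 0.0549). None of these values passed the test in the fit over all 18 arrays. Without wild-type 72 h replicate 1, the lowest of its group at 6.30, the 72 h value of CAMP in wild-type cells was 0.61 (adjusted p = 0.00807), and without knockout 72 h replicate 1, also the lowest of its group at 6.38, that of knockout cells was 0.51 (adjusted p = 0.0448). In each line this was the only call among 6 runs that left out 1 array. Adjusted p by limma reached 0.211 in wild-type cells and 0.296 in knockout cells in the other runs. CEACAM8, the surface marker CD66b that is carried on specific granule membranes, lay between 5.11 and 5.98. Its log2 difference at 72 h was −0.09 ± 0.16 in knockout cells (adjusted p = 0.67) and 0.38 ± 0.16 in wild-type cells (adjusted p = 0.0602), where the ATRA arrays lay above the untreated ones without overlap. Without wild-type 72 h replicate 1 the wild-type value was called (0.49, adjusted p = 0.0353), the only call among 6 such runs (adjusted p up to 0.181). At 48 h CEACAM8 differed by 0.29 ± 0.16 in knockout cells (adjusted p = 0.157). Of 6 runs that left out 1 array, this was called only without 48 h replicate 3 of those cells (0.43, adjusted p = 0.0433). In the others adjusted p reached 0.631.

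OLFM4, a glycoprotein that marks a subset of neutrophils, had log2 signals in knockout cells of 4.85, 4.70 and 4.86 untreated, 4.94, 5.18 and 5.23 at 48 h, and 4.76, 5.47 and 5.41 at 72 h. Wild-type cells had 4.61, 4.56 and 4.63 untreated, 4.42, 5.35 and 6.53 at 48 h, and 5.92, 5.04 and 6.31 at 72 h. The untreated arrays were tight, and the wild-type ATRA arrays spread widely, from below every untreated array to the highest value of the gene. In knockout cells the change was 0.31 ± 0.39 at 48 h (adjusted p = 0.536) and 0.41 ± 0.39 at 72 h (adjusted p = 0.412). In wild-type cells it was 0.83 ± 0.39 at 48 h (adjusted p = 0.101) and 1.16 ± 0.39 at 72 h, a 2.23-fold rise (adjusted p = 0.0245). The untreated wild-type mean lay at percentile 23.5 of all probe sets, so this fold is a ratio to a signal not shown to be above background. The call at 72 h was lost when any 1 untreated or 72 h wild-type array other than 72 h replicate 2 was left out (adjusted p up to 0.112) and with quantile normalization (adjusted p = 0.0548). The array at 4.42 is the wild-type 48 h replicate that lay nearest the untreated arrays on the first principal component. Without it the 48 h change was 1.34 and called (adjusted p = 0.00601), the only call among 6 runs that left out 1 array (adjusted p up to 0.532). The part of that array's general state in the OLFM4 value was not tested.

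The metalloproteinases among the members did not move together. MMP9 was called lower in every ATRA comparison, MMP8 was called higher in all but knockout cells at 48 h, and MMP25 was called in none. MMP9, or gelatinase B, degrades basement membrane collagen and gives the gelatinase granule its name. Its log2 signals in knockout cells were 9.72, 9.80 and 9.72 untreated, 6.33, 6.96 and 6.47 at 48 h, and 6.63, 6.28 and 6.71 at 72 h. Wild-type cells had 9.98, 10.05 and 10.02 untreated, 6.19, 6.69 and 7.56 at 48 h, and 7.13, 6.24 and 7.16 at 72 h. No ATRA array came near an untreated one, and the 48 h and 72 h arrays of each line overlapped. In knockout cells MMP9 fell by 3.16 ± 0.29 (SE) on the log2 scale at 48 h and fell by 3.21 ± 0.29 at 72 h (adjusted p = 5.69e-07 and 5.02e-07). In wild-type cells it fell by 3.20 ± 0.29 and fell by 3.17 ± 0.29 (adjusted p = 4.42e-07 and 4.14e-07), so that 0.109 and 0.111 of the untreated signal remained. Among the 10 members MMP9 was the only gene called lower, and the call held in every alternative run. Of 6 measured eosinophil, basophil and mast cell markers, limma also called 3 lower at each time in each line, with 1 called higher in 3 of these 4 comparisons, and their array means were 5.41 to 5.84 under ATRA and 6.74 to 6.97 in untreated cells. Among all probe sets, 19.9% and 19.2% were called lower at 48 and 72 h in knockout cells, and 19.6% and 21% in wild-type cells. The part of these markers in the fall of MMP9 was not tested.

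MMP8, the neutrophil collagenase stored in specific granules, rose. Knockout cells had log2 signals of 3.22, 3.56 and 3.44 untreated, 3.76, 3.56 and 4.40 at 48 h, and 4.60, 4.09 and 4.47 at 72 h. Wild-type cells had 3.25, 3.73 and 3.56 untreated, 4.53, 5.51 and 5.16 at 48 h, and 6.32, 5.16 and 5.65 at 72 h. In wild-type cells both times lay above untreated without overlap, and in knockout cells only 72 h did. The untreated means lay at percentile 9.47 in knockout cells and 10.3 in wild-type cells among all probe sets, so the folds below are ratios to a signal not shown to be above background. The change in knockout cells was 0.50 ± 0.30 at 48 h (adjusted p = 0.189) and 0.98 ± 0.30 at 72 h, a 1.97-fold rise (adjusted p = 0.0151). In wild-type cells MMP8 rose 2.94-fold at 48 h (1.55 ± 0.30, adjusted p = 0.000662) and 4.58-fold at 72 h (2.20 ± 0.30, adjusted p = 2.37e-05). The knockout call at 72 h was lost with quantile normalization, where the change was 0.65 (adjusted p = 0.117). It was also lost without knockout untreated replicate 1 (0.89, adjusted p = 0.0581) or without knockout 72 h replicate 1 (0.87, adjusted p = 0.0563). Ordered by mean, the groups ran from untreated knockout (3.41) and untreated wild-type (3.51) through knockout at 48 h (3.91) and 72 h (4.39) to wild-type at 48 h (5.07) and 72 h (5.71), and each group overlapped its neighbours in this order.

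MMP25, a membrane-anchored metalloproteinase of neutrophils, stayed within 6.41 to 6.91 on all arrays. At 48 h it differed from untreated by 0.30 ± 0.12 in knockout cells (adjusted p = 0.0563) and by −0.12 ± 0.12 in wild-type cells (adjusted p = 0.434). The knockout arrays lay above and the wild-type arrays below their untreated arrays without overlap, and the difference of 0.42 ± 0.17 between the responses was not called by limma (adjusted p = 1). Of the 10 members, 7 lay above untreated without overlap in knockout cells at 48 h, and 2 lay below it in wild-type cells. With brighter probe sets only, the knockout change of MMP25 was called (0.30, adjusted p = 0.0406). At 72 h the changes were 0.19 ± 0.12 in knockout cells and −0.01 ± 0.12 in wild-type cells (adjusted p = 0.21 and 0.938). FCN1, a lectin of ficolin 1-rich granules that monocytes express too, lay between 7.56 and 8.14. Its 4 changes under ATRA were between 0.01 and 0.16 on the log2 scale, with adjusted p of 0.289 to 0.969. Of 7 measured monocyte and macrophage markers, limma called 2 higher at 48 h and 3 at 72 h in knockout cells and 3 at 48 h and 6 at 72 h in wild-type cells. Their array means were 6.14 to 6.30 under ATRA in knockout cells, against 5.84 to 5.93 untreated. In wild-type cells they were 6.21 to 6.78 under ATRA, against 5.93 to 6.03 untreated. Among all probe sets, 21.5% and 22.8% were called higher at 48 and 72 h in knockout cells, and 19.3% and 23.1% in wild-type cells. The part of these markers in the values of FCN1 and the other members was not tested.

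**Figure D2:**
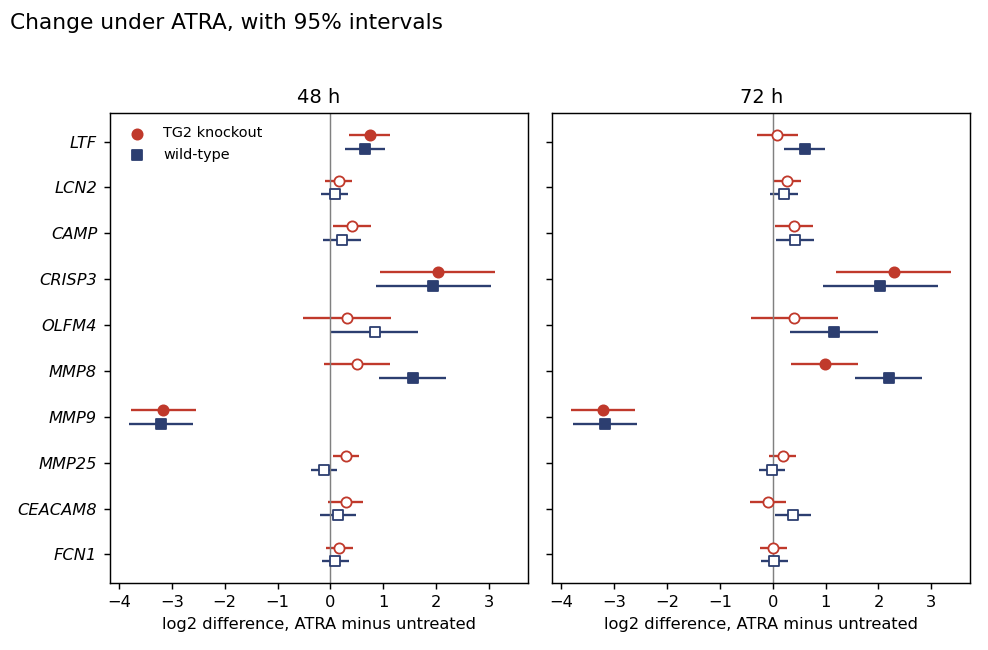
Log2 difference of ATRA minus untreated for each granule gene at 48 h (left) and 72 h (right), with 95% intervals from limma, TG2 knockout cells above wild-type cells; filled symbols mark adjusted p under 0.05 over all probe sets. MMP9 lies near −3.2 in all 4 comparisons, CRISP3 near 2, and MMP8 at 0.98 in knockout and 2.20 in wild-type cells at 72 h.

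The median change over the 10 members was 0.31 at 48 h and 0.23 at 72 h in knockout cells, and 0.18 at 48 h and 0.40 at 72 h in wild-type cells. Over all probe sets the median was 0.14 and 0.13 in knockout cells and 0.10 and 0.12 in wild-type cells. Subtracting each array's own median changed no call among the members. From 48 to 72 h limma called no member in knockout or wild-type cells, and 0% of all probe sets in either line. At an unadjusted p under 0.05, it held 2 members in knockout cells (LTF and CEACAM8, 8.2% of all probe sets) and 1 in wild-type cells (MMP8, 5.86%).

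The second question was whether the lines differed. The test called no member between knockout and wild-type cells that were untreated, at 48 h or at 72 h, where it called 0.00601%, 0.021% and 0.0961% of all probe sets. The count at an unadjusted p under 0.05 was 0 untreated (1.15% of all probe sets), 1 at 48 h (MMP8, 5.92%) and 3 at 72 h (MMP8, LTF and CEACAM8, 11.2%). The median difference of the members, knockout minus wild-type, was −0.10 untreated, −0.04 at 48 h and −0.23 at 72 h, against −0.01, 0.01 and 0.01 over all probe sets.

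**Figure D3:**
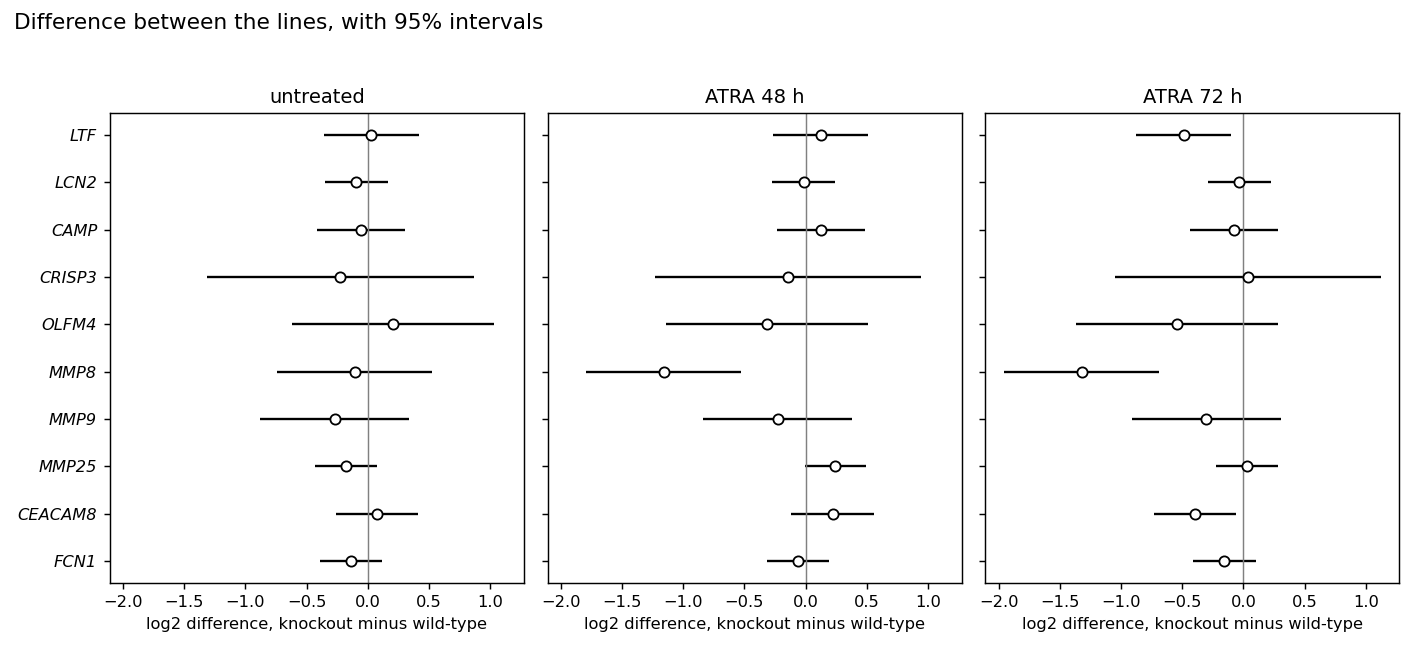
Log2 difference of TG2 knockout minus wild-type for each granule gene in untreated cells and after 48 and 72 h of ATRA, with 95% intervals from limma; open symbols mark adjusted p of 0.05 or more over all probe sets. MMP8 lies at −1.16 at 48 h and −1.32 at 72 h, and the intervals of LTF and CEACAM8 at 72 h also lie below 0, while no gene passes the test.

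MMP8 stood furthest apart. At 48 h its knockout arrays reached 4.40 at most and its wild-type arrays began at 4.53, and at 72 h they reached 4.60 and began at 5.16. MMP8 was the only member whose knockout arrays lay wholly below the wild-type arrays at 48 h or 72 h, which held for 2.97% and 5% of all probe sets. The difference was −1.16 at 48 h (95% interval −1.79 to −0.53, adjusted p = 0.398) and −1.32 at 72 h (−1.96 to −0.69, adjusted p = 0.114). The knockout means at these times lay at percentile 11.7 and 16.7 of all probe sets, so no ratio of signals is given. As single arrays were left out, the 72 h difference ran from −1.60 to −1.02 with adjusted p of 0.0374 to 0.282. It was called only without wild-type 72 h replicate 2, the lowest wild-type array. The responses to ATRA, knockout minus wild-type, differed by −1.05 ± 0.42 at 48 h and −1.22 ± 0.42 at 72 h (adjusted p = 1 for both). Monocyte and macrophage markers had array means at 72 h of 6.14 to 6.30 in knockout cells and 6.45 to 6.78 in wild-type cells. Untreated, they had 5.84 to 5.93 in knockout cells and 5.93 to 6.03 in wild-type cells. Limma called none of the 7 measured markers between the lines at 72 h, where 0.0961% of all probe sets were called. The part of these markers in the MMP8 difference was not tested.

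LTF at 72 h was 0.49 ± 0.18 below wild-type on the log2 scale in knockout cells, with overlapping arrays (difference −0.49, adjusted p = 0.333). CEACAM8 at 72 h differed by −0.40 ± 0.16 (adjusted p = 0.355) and OLFM4 by −0.54 ± 0.39 (95% interval −1.37 to 0.28, adjusted p = 0.669). CRISP3 had differences of −0.22, −0.14 and 0.03 in untreated cells, at 48 h and at 72 h, and the 95% interval at 72 h ran from −1.05 to 1.12. LCN2 was measured more closely, with a 72 h difference of −0.03 and an interval of −0.29 to 0.23. MMP9 differed by −0.27 in untreated cells (interval −0.88 to 0.34, adjusted p = 1), where the knockout arrays lay below the wild-type arrays without overlap, by −0.23 at 48 h and by −0.30 at 72 h. When only the untreated groups were fitted, with their smaller spread, the untreated MMP9 difference was called (adjusted p = 0.0313). In untreated cells 3 members (MMP9, MMP25 and FCN1) lay below wild-type without overlap and 1 (OLFM4) above it, which held for 9.3% and 8.84% of all probe sets. At 48 h MMP25 lay above wild-type without overlap (difference 0.24 ± 0.12, adjusted p = 0.847), which held for 3.79%. The difference of the ATRA responses was called for no member at 48 h or 72 h, where 0.003% and 0% of all probe sets were called. Unadjusted p was under 0.05 for 2 members at 48 h (MMP8 and MMP25, 2.88% of all probe sets) and 1 at 72 h (MMP8, 4.66%).

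A list of transcription factors linked to granule genes, not all of which drive them, was measured on the same arrays. Of 10 measured factors, limma called 3 higher and 4 lower at 48 h and 4 higher and 4 lower at 72 h, in knockout cells and again in wild-type cells. It called 41.4% of all probe sets at 48 h and 42% at 72 h in knockout cells, and 38.9% and 44% in wild-type cells. CEBPE, which encodes C/EBP epsilon, had a mean log2 signal of 8.03 ± 0.14 (SD, n = 3) untreated, 9.68 ± 0.27 at 48 h and 9.58 ± 0.07 at 72 h in knockout cells, and 7.86 ± 0.12, 9.66 ± 0.19 and 9.67 ± 0.09 in wild-type cells. It rose 3.14-fold and 2.93-fold in knockout cells and 3.48-fold and 3.51-fold in wild-type cells (largest adjusted p = 3.95e-07). CEBPB, a related factor, rose by 1.59 on the log2 scale in knockout cells and 1.89 in wild-type cells at 72 h. SPI1, which encodes PU.1, rose by 0.65 in knockout cells and 0.84 in wild-type cells, and MYB, a factor of immature cells, changed by −0.94 in knockout cells and −1.15 in wild-type cells, both called. Knockout minus wild-type differences of CEBPE were 0.17, 0.02 and −0.09 in untreated cells, at 48 h and at 72 h, and none of the 10 factors was called between the lines. The CEBPE transcript rose in both lines. Among the members, CRISP3 was called higher at both times in both lines, LTF, MMP8 and OLFM4 were called higher in some comparisons, and MMP9 was called lower in all. LCN2, CAMP, MMP25, CEACAM8 and FCN1, with changes of up to 0.42, did not pass the test. The part of CEBPE in these values was not tested.

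**Figure D4:**
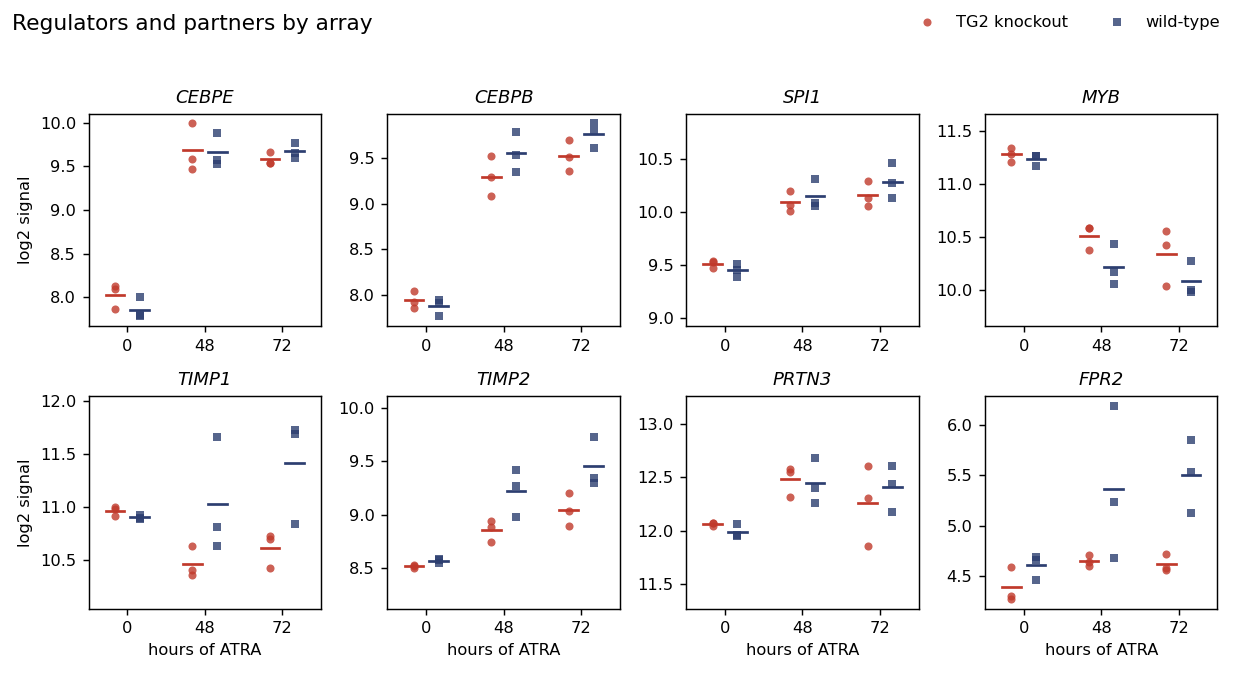
Log2 signal on each array (points) with group means (bars), by hours of ATRA, for 4 transcription factors of granule genes and 4 partners of the granule proteins, with TG2 knockout cells left of wild-type cells and 3 arrays per group. CEBPE, CEBPB and SPI1 rise and MYB falls in both lines. At 72 h every knockout array lies below every wild-type array for TIMP1, TIMP2 and FPR2, which held for 5% of all probe sets, and limma called none of these genes between the lines.

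Partners of the granule proteins include their inhibitors, binding partners and receptors. Of 12 measured, limma called 4 higher at each time in knockout cells and 6 higher at each time in wild-type cells, none lower and none between the lines. Among all probe sets, 21.5% and 22.8% were called higher at 48 and 72 h in knockout cells, and 19.3% and 23.1% in wild-type cells. TIMP1, an inhibitor of metalloproteinases that binds MMP9, had log2 signals in knockout cells of 10.92, 11.00 and 10.98 untreated, 10.36, 10.41 and 10.63 at 48 h, and 10.73, 10.43 and 10.70 at 72 h. Wild-type cells had 10.93, 10.90 and 10.89 untreated, 10.81, 10.63 and 11.66 at 48 h, and 11.69, 10.84 and 11.73 at 72 h. The knockout ATRA arrays lay below untreated without overlap, yet neither change passed the test (−0.50 and −0.35, adjusted p = 0.0939 and 0.239), nor did those of wild-type cells (0.13 and 0.51, adjusted p = 0.693 and 0.0826). At 72 h knockout minus wild-type was −0.80 ± 0.23 (adjusted p = 0.212). TIMP2, which inhibits MMP2 and other members of the family, rose by 0.52 in knockout cells and 0.89 in wild-type cells at 72 h. FPR2, a receptor of the CAMP peptide LL-37, changed by 0.23 in knockout cells (adjusted p = 0.508) and rose by 0.90 in wild-type cells (adjusted p = 0.014) at 72 h, with a difference of −0.88 between the lines that was not called (adjusted p = 0.236). Its untreated means lay at percentile 20.6 in knockout and 23.6 in wild-type cells among all probe sets, not shown to be above background. CEACAM1, a glycoprotein of the CEACAM8 family, rose by 1.07 in knockout cells and 1.91 in wild-type cells at 72 h. A2M, the plasma inhibitor that traps proteases, rose by 0.45 in wild-type cells at 72 h, and its knockout value of 0.28 did not pass (adjusted p = 0.145). PRTN3, proteinase 3, which cleaves the CAMP precursor to LL-37, changed by 0.20 in knockout cells (adjusted p = 0.324) and rose by 0.42 in wild-type cells (adjusted p = 0.0405) at 72 h.

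Other genes of specific, gelatinase and secretory granules also moved in both directions. Of 28 measured, limma called 8 higher and 6 lower at 48 h and 11 higher and 6 lower at 72 h in knockout cells, and 9 higher and 6 lower at 48 h and 10 higher and 6 lower at 72 h in wild-type cells. Of all probe sets, 21.5% were called higher and 19.9% lower at 48 h and 22.8% and 19.2% at 72 h in knockout cells. In wild-type cells these shares were 19.3% and 19.6% at 48 h and 23.1% and 21% at 72 h. They apply to the other counts of this paragraph too. ITGAM, the CD11b integrin chain of specific granule membranes, rose by 1.36 in knockout cells and 2.32 in wild-type cells at 72 h, and CYBA, a membrane subunit of the NADPH oxidase, rose by 1.12 in knockout cells and 1.62 in wild-type cells. LYZ, which encodes lysozyme, changed by −3.35 in knockout cells and −3.67 in wild-type cells, and ANPEP, the CD13 aminopeptidase, by −2.02 in knockout cells and −2.16 in wild-type cells, all of them called. Among 19 other matrix metalloproteinases, limma called 6 higher and 1 lower at 48 h and 5 higher and 1 lower at 72 h in knockout cells, and 4 higher and 1 lower at 48 h and 5 higher and 1 lower at 72 h in wild-type cells. The gene that fell was MMP2, or gelatinase A, with changes of −2.13 in knockout cells and −1.78 in wild-type cells at 72 h. Both gelatinases therefore fell under ATRA. MMP7, MMP1 and MMP19 rose by 0.70, 0.87 and 0.64 in knockout cells and by 0.79, 0.68 and 0.63 in wild-type cells. Untreated MMP7 lay at percentile 12.9 in knockout and 12.6 in wild-type cells among all probe sets, and MMP1 at 18.4 and 16.7. Their untreated signals were not shown to be above background. Of 18 measured genes of granule formation and release, 5 were higher and 4 lower at 48 h and 5 higher and 3 lower at 72 h in knockout cells, and 6 higher and 2 lower at each time in wild-type cells. STXBP2, which serves granule fusion, rose by 1.12 in knockout cells and 1.16 in wild-type cells at 72 h, and SYTL1, an effector of RAB27A, rose by 0.90 in knockout cells and 0.91 in wild-type cells. NBEAL2, known for granule formation in platelets and neutrophils, changed by 0.29 in knockout cells (adjusted p = 0.156) and rose by 1.00 in wild-type cells (adjusted p = 0.000112). AP3B1, a subunit of the AP-3 sorting adaptor, fell by 0.62 in both lines. Limma called no gene of these lists between the lines at any time.

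Genes whose 6 group means, each relative to untreated wild-type cells, followed those of a member most closely were named by Euclidean distance on the log2 scale among genes measured by their own probe set. The nearest to MMP8 were IFIT2, an interferon-induced gene (distance 0.25), AQP9, a water and glycerol channel (0.38), and CEACAM1 (0.44). Each of them stood 0.94 to 1.07 above untreated wild-type in knockout cells at 72 h and 1.91 to 2.40 above it in wild-type cells, where MMP8 stood at 0.87 and 2.20. MMP9 was followed by HDC, which makes histamine and is on the eosinophil, basophil and mast cell list (0.63), EBF3, a transcription factor (0.67), and LYZ (0.78), all between −3.58 and −3.23 in knockout cells and between −3.67 and −3.63 in wild-type cells at 72 h. For OLFM4 they were BMF, a pro-apoptotic BCL2 family gene (0.17), ATG2A, an autophagy gene (0.17), and PLSCR1, a phospholipid scramblase gene (0.20). These distances rest on 6 means from the same 18 arrays and describe likeness of pattern only.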

How the data were processed

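RNA of 18 samples was measured on Affymetrix whole-transcript gene arrays, with biotin-labelled cDNA per the labels' protocols. Each array has 1 deposited value per probe set, read here as log2 because the values lie between 0.73 and 13.56. What the authors did for background, normalization and summary is not given in the sources used here, and the values were not normalized further. No detection call entered the tests, and precision is limited by 3 arrays per group.

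With limma 3.58.1 (R 4.3.3), group means were fitted to all 18 arrays and 33297 probe sets, and variances were moderated by eBayes along a mean-variance trend. P-values are 2-sided and were adjusted by Benjamini-Hochberg across every probe set of a contrast, and a gene was called at an adjusted p under 0.05. Intervals are 95% intervals of the same fit. The fit assumes 1 spread for all groups, although the median SD between arrays was 0.215 to 0.243 in ATRA groups and 0.0757 to 0.0985 in untreated groups. The fit was tested on simulated data that gave each probe set the same spread in all groups, so that test does not cover the unequal spread.

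Gene names come from the platform annotation, through probe sets of a single gene. The 10 members, the other lists and the rule for named genes (all members, TGM2, up to 4 called genes per list with the largest 72 h change in wild-type cells, CEBPE, TIMP1, PRTN3 and the 3 nearest patterns of MMP8, MMP9 and OLFM4) were chosen with earlier results of these data known. Replicate numbers were checked by correlating the deviations of same-numbered knockout and wild-type arrays across probe sets. At 72 h r was 0.103, 0.16 and 0.138, so those arrays were taken as paired in an alternative fit. At 48 h r was 0.196, 0.194 and 0.089, and in untreated cells −0.0601, −0.056 and −0.128. Alternatives changed the normalization, the probe sets kept, the variance model, the groups fitted and, 1 at a time, the arrays.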

Additional observations from a re-analysis of the deposited data

Results flagged for a closer look

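MMP25 at 48 h lay on opposite sides of untreated in the lines: every knockout array lay above and every wild-type array below the untreated arrays of its own line. The log2 signals were 6.74, 6.91 and 6.84 at 48 h against 6.58, 6.41 and 6.61 untreated in knockout cells, and 6.57, 6.62 and 6.57 at 48 h against 6.73, 6.75 and 6.65 untreated in wild-type cells. Neither change passed the test (0.30, adjusted p = 0.0563 in knockout cells, and −0.12, adjusted p = 0.434 in wild-type cells), though with brighter probe sets only the knockout change did (adjusted p = 0.0406). The difference of the responses, knockout minus wild-type, was 0.42 ± 0.17 (SE), and limma did not call it (adjusted p = 1). Of the 10 members, 7 lay above untreated without overlap in knockout cells at 48 h, and 2 lay below it in wild-type cells. The share of all probe sets that did so is not given here, so the pattern of MMP25 is described only. With 3 arrays per group, no test for single outlying arrays was run.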

How the results depend on the processing

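Across 110 member results and 1725 values under alternatives, 1697 kept their call, 12 lost it, 16 gained it and 0 reversed a called direction; in 81 the sign changed where neither value was called. With brighter probe sets only, 5 members could be tested (LCN2, CAMP, MMP9, MMP25 and FCN1), and the calls under ATRA numbered 2 at 48 h (MMP9 and MMP25) and 1 at 72 h (MMP9) in knockout cells, and in wild-type cells 1 at 48 h (MMP9) and 2 at 72 h (CAMP and MMP9). The 4 members that rose under ATRA were too dim for this filter and could not be tested with it. With only the compared groups fitted, 1 member was called between untreated knockout and wild-type cells (MMP9). Leaving out 1 array at a time gave 2 to 3 called members at 72 h and 3 to 4 at 48 h in knockout cells, 3 to 6 at 72 h and 4 to 5 at 48 h in wild-type cells, and 0 to 1 between the lines at 72 h. The count of 3 in wild-type cells at 72 h came without untreated replicate 1 or without 72 h replicate 3. The replicate block left 0 calls between the lines at 72 h (MMP8 adjusted p = 0.121), as did the block with only the compared groups, an alternative added after seeing the data (adjusted p = 0.217). At 48 h the same-numbered arrays of the lines were correlated to a similar degree as at 72 h, and the block left 0 calls between the lines there too (MMP8 adjusted p = 0.393). In the remaining comparisons the block changed 1 call, CAMP at 72 h in wild-type cells (adjusted p = 0.0401). The alternative of averaging all single-gene probe sets equals the reported values, since each member has 1. Under probe sets of 1 gene only, CAMP and CEACAM8 were called at 72 h in wild-type cells (adjusted p = 0.0441 and 0.0485). CEACAM8 was also called there with array weights per group (adjusted p = 0.024) and with only the compared groups (adjusted p = 0.0472), and OLFM4 at 48 h in wild-type cells with array weights (adjusted p = 0.0335). Quantile normalization called FCN1 at 48 h in knockout cells (0.36, adjusted p = 0.0484).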
